A study of Mus musculus with 16 samples.

Results

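The leukocyte integrin and selectin-ligand genes Itgam, Itgal, Itgax, Itgb2, Itga4, Itgb1, Itgb7, Selplg and Cd44 were followed in myeloid-derived suppressor cells (MDSCs) from the spleens of melanoma-bearing mice. The 9 genes were chosen by symbol for their part in leukocyte adhesion. All 9 were among the 24421 symbols of the count tables, and all 9 had enough reads to be tested in every comparison. MDSCs are immature myeloid cells that accumulate in tumor-bearing hosts and restrain T cells, and they comprise a monocytic (M-MDSC) and a granulocytic (G-MDSC) subset. The study addressed how loss of Nlrp3, the sensor of an inflammasome that releases IL-1β, alters these cells.

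RNA 3′ end libraries were made from 16 sorted samples, 4 in each of 4 groups. M-MDSC WT and G-MDSC WT came from wild-type C57BL/6 mice. M-MDSC Nlrp3-/- and G-MDSC Nlrp3-/- came from mice whose Nlrp3 gene is disrupted by an EGFP cassette in the germline, so that every cell type, and not the MDSCs alone, lacked the gene. All mice of both genotypes carried a B16.F10 melanoma under the skin of the back, were adults of 6–12 weeks, and received no further agent. Each mouse gave both libraries, so 4 WT and 4 Nlrp3-/- mice are the replicates. The sort took CD11b-high cells that were either Ly6C+ Ly6G- (M-MDSCs) or Ly6C- Ly6G+ (G-MDSCs). CD11b is the product of Itgam, so this protein was required of the cells of all 4 groups.

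Integrins are pairs of an α and a β chain that bind firmly only after signals from inside the cell have switched them to an open shape. On myeloid cells the β2 chain (Itgb2, CD18) pairs with Itgal (LFA-1), Itgam (Mac-1) or Itgax (CD11c), and these dimers bind ICAMs, complement fragments and fibrinogen. The α4 chain (Itga4) pairs with β1 (Itgb1) to bind VCAM-1 and fibronectin, or with β7 (Itgb7) to bind MAdCAM-1. Selplg encodes PSGL-1, on which leukocytes roll along P-selectin, and Cd44 is the receptor for hyaluronan. Spleen, marrow and tumor vessels present the ligands of these receptors, and MDSCs can use them to leave the blood.

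Library totals ran from 2295967 to 6079866 counts. Nlrp3 had 219 to 632 counts in M-MDSC WT and 4 to 11 in M-MDSC Nlrp3-/-, and 744 to 1365 in G-MDSC WT and 21 to 59 in G-MDSC Nlrp3-/-, so every library matched its genotype label. Levels below are CPM (counts relative to the library total) scaled by the trimmed mean of M values over the 16 libraries. Summed CPM of 8 monocyte markers lay at 5595 to 9595 in M-MDSCs and 781 to 1345 in G-MDSCs. Summed CPM of 7 granulocyte markers lay at 308 to 1362 in M-MDSCs and 15500 to 22030 in G-MDSCs (Ly6g was not analysed here). The ribosomal RNA precursor Rn45s took 13.4% to 25.9% of the counts of WT libraries and 5.60% to 13.5% of those of Nlrp3-/- libraries, and leaving it out changed no call among the 9 genes. CPM levels are compared between groups for the same gene and not between genes, and the ratios of dimer partners are likewise compared between groups.

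Promoter sequences are given for 4 of the genes, because Itgam and Itga4 carried the genotype calls and Itgax and Itgb7 moved in opposite directions between the subsets. They are RefSeq's for GRCm38.p6, from 250 bases before the annotated start to 50 bases from it on, 5′ to 3′ on the strand of the gene. Capitals mark matches, on either strand, to GAGGAA, the purine-rich core of sites for the myeloid factor PU.1, and to TGTGGT, the RUNX core.
Itgam (chr7:128062390-128062689, plus strand): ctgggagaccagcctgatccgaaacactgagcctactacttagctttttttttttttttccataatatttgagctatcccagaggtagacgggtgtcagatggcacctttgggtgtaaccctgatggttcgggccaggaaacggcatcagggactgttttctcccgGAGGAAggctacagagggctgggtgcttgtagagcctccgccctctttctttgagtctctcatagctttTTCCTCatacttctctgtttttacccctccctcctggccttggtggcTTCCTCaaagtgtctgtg
Itga4 (chr2:79255176-79255475, plus strand): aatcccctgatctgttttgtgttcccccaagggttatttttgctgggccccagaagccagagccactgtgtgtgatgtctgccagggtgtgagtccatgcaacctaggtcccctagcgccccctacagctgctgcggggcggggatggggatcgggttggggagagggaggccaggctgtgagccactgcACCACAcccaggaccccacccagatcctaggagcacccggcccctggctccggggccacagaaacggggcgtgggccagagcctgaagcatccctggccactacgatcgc
Itgax (chr7:128129300-128129599, plus strand): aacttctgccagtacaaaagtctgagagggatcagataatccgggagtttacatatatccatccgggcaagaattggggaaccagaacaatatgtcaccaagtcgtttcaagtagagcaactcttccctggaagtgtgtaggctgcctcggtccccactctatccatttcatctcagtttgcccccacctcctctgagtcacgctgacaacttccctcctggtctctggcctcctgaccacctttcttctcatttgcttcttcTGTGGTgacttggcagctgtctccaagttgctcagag
Itgb7 (chr15:102231886-102232185, minus strand): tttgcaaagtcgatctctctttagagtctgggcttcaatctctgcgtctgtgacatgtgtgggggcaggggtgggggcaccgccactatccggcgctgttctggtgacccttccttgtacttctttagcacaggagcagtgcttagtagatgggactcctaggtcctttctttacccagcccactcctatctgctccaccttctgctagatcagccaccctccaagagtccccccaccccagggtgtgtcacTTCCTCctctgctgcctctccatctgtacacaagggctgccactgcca
RefSeq gave a promoter for 6 of the 9 genes, these 4 with Itgb1 and Cd44. GAGGAA on either strand was in 4 of the 6 (Itgam, Itgb1, Itgb7 and Cd44) and in 28.3% of 32851 promoters of the same length. Itgam held 3 matches, which began 84 and 15 bases before the start and at position 33 of the transcript. TGTGGT on either strand was in 2 of the 6 (Itgax and Itga4) and in 16.8% of promoters. The GC box GGGCGG was in 4 of the 6 and in 35.7% of promoters, and TATAAA was in 0 of the 6 and in 13.6%. No match overlapped another, and a match describes the window without showing that a factor binds it.

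On mm10, Itgal (chr7:127296260-127335138), Itgam (chr7:128062640-128118491) and Itgax (chr7:128129547-128150657) lie near each other on the plus strand of chromosome 7. Itgb2 lies at chr10:77530252-77565708, Itga4 at chr2:79255426-79333123, Itgb1 at chr8:128685654-128733200, Itgb7 at chr15:102215995-102231944, Selplg at chr5:113818536-113832644 and Cd44 at chr2:102811141-102901665. Itgam overlaps the gene model Gm49368 on the same strand, which is not among the counted symbols. Whether they share exons was not examined, and reads of any shared exons could not be split between them.

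Itgam was lower in Nlrp3-/- cells of both subsets, Itga4 was lower in Nlrp3-/- G-MDSCs, and none of the 9 genes was called higher in the main analysis. A gene was called where edgeR's quasi-likelihood test gave a Benjamini-Hochberg adjusted p under 0.05 and the change was over 1.5-fold. In M-MDSCs 1 of the 9 genes was called (lower), where 7.1% of 9986 tested genes were called lower and 3.51% higher. In G-MDSCs 2 of the 9 were called (both lower), where 11.7% of 9273 tested genes were called lower and 4.7% higher. WT and Nlrp3-/- libraries did not overlap in CPM for 2 of the 9 genes in M-MDSCs (19.3% of all tested genes) and for 4 of the 9 in G-MDSCs (24.4%). The median log2 fold change, Nlrp3-/- over WT, was 0.17 over the 9 genes and 0.07 over all tested genes in M-MDSCs, and 0.24 and 0.03 in G-MDSCs. Higher calls depended on the test. With the trimmed mean kept as the scaling, edgeR's exact test called Itgax and Itgb7 higher in M-MDSCs and Itgb7 in G-MDSCs. Of all genes it called 471 and 532 higher. A model of all 16 libraries called Itgax higher in M-MDSCs and Itgb7 and Selplg in G-MDSCs, beside 259 and 828 of all genes. With library size alone as the scaling, the split was 2 higher (Itgax and Itgb7) and 0 lower in M-MDSCs and 2 higher (Itgb7 and Selplg) and 2 lower in G-MDSCs, where 684 genes of all were called higher and 569 lower in M-MDSCs and 793 and 854 in G-MDSCs. These are bulk libraries, in which fewer cells of a type and less RNA per cell cannot be told apart.

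**Figure D1:**
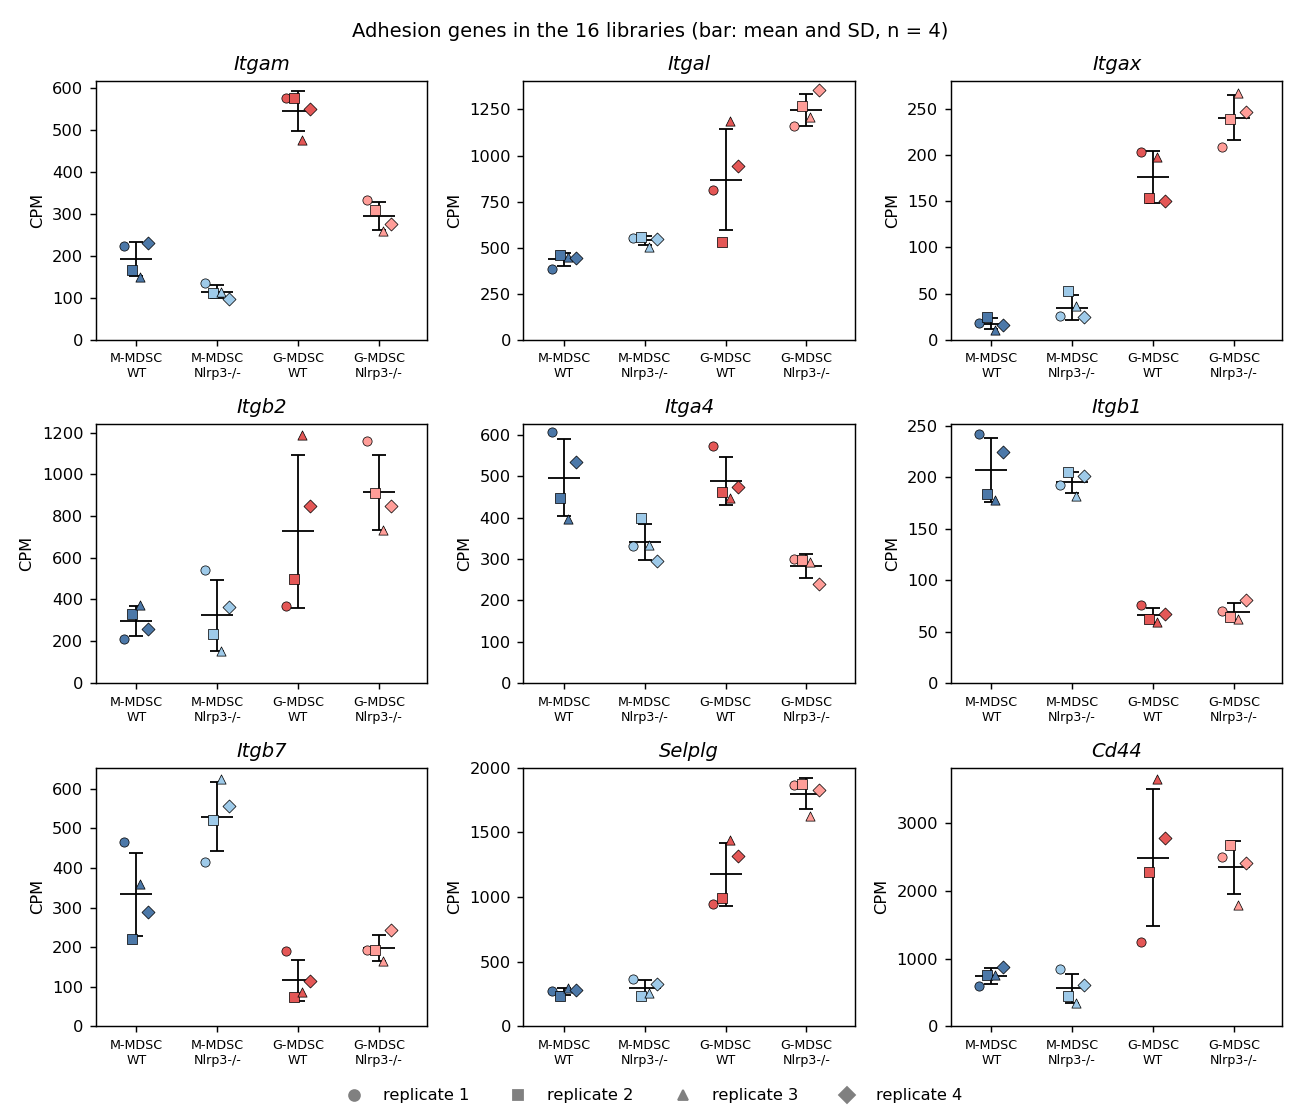
CPM of each of the 9 genes (y axis, from 0) in the 4 groups (x axis), 1 point per library with a symbol for its replicate number, and a bar for the mean and SD of 4. Itgam separates all 4 groups, from 97.1 CPM at the lowest to 577 CPM at the highest, while Itgb2 and Cd44 spread widely within groups.

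Itgam, the α chain of Mac-1, held the 4 groups apart with no overlap between neighbours. Its CPM in replicates 1 to 4 was 224, 166, 149 and 231 in M-MDSC WT and 136, 112, 113 and 97.1 in M-MDSC Nlrp3-/-. In G-MDSC WT it was 577, 576, 476 and 550, and in G-MDSC Nlrp3-/- 333, 310, 260.0 and 275. Each Nlrp3-/- library lay below each WT library of its subset. The log2 fold change was -0.71 (SE 0.19; edgeR's quasi-likelihood test, Benjamini-Hochberg adjusted p = 0.0329) in M-MDSCs and -0.97 (SE 0.15; adjusted p = 0.000632) in G-MDSCs. The G-MDSC call held in 18 of 18 alternative analyses, whereas the M-MDSC call held in 9 of 18 (adjusted p from 0.00491 to 0.107) and was lost without WT replicate 1, 2 or 4 or Nlrp3-/- replicate 2, 3 or 4. It was lost as well with library size as the only scaling (-0.61; edgeR adjusted p = 0.0504), with the replicate block (-0.71; adjusted p = 0.0769) and with the GC and length correction given below.

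Itga4, the α4 chain, showed the same order of genotypes. In M-MDSC WT the CPM was 608, 447, 398 and 534, and in M-MDSC Nlrp3-/- 331, 400, 333 and 296. In G-MDSC WT it was 574, 461, 447 and 474, and in G-MDSC Nlrp3-/- 299, 297, 294 and 239. The genotypes overlapped in M-MDSCs by 1 library of each group and were apart in G-MDSCs. The log2 fold change was -0.88 (SE 0.15; edgeR adjusted p = 0.00143) in G-MDSCs and -0.52 (SE 0.17; adjusted p = 0.0685, not called) in M-MDSCs.

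Both calls were set beside the base composition of the transcripts. The Itga4 transcript has 41.1% GC, and 8.0% of 10635 genes have less. The Itgam transcript has 48.9% GC, close to the median of 49.9%. When each library was corrected for a smooth dependence on transcript GC content and length, a step added after the data were seen, the log2 fold change of Itga4 became -0.17 (edgeR adjusted p = 0.499) in G-MDSCs and 0.00 in M-MDSCs. Itgam kept its call in G-MDSCs at -0.76 (adjusted p = 0.00738) and lost it in M-MDSCs at -0.57 (adjusted p = 0.0838). Itgb7 and Selplg, with 58.0% and 58.6% GC, moved from 0.69 to 0.44 and from 0.53 to 0.16 in G-MDSCs. The correction fits GC content and length together, so their parts in these shifts were not separated.

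**Figure D2:**
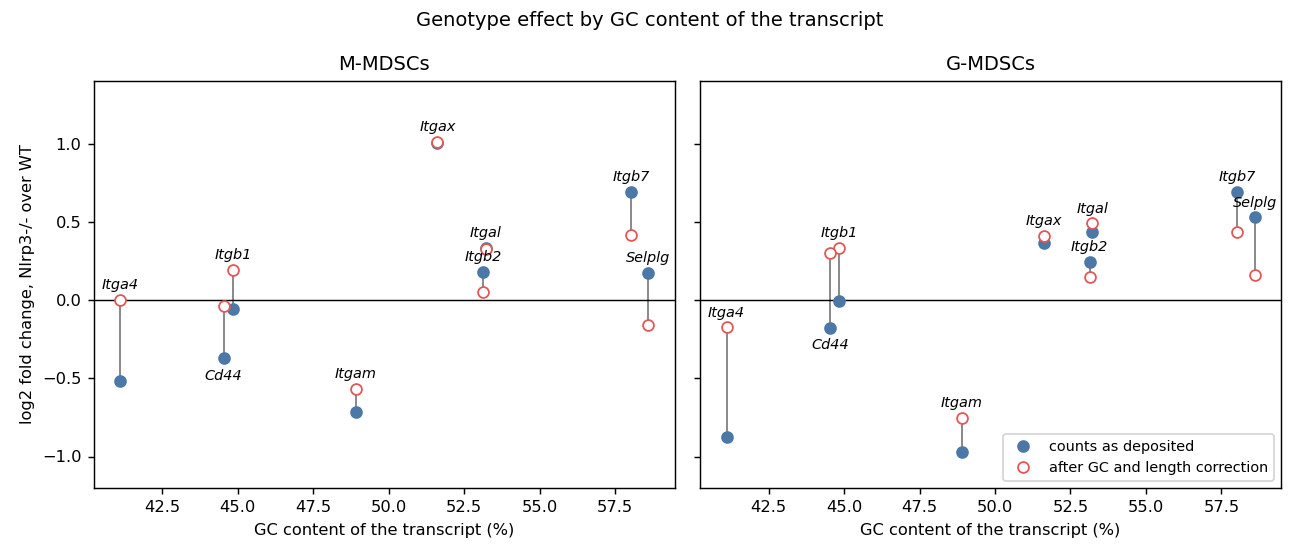
Log2 fold change, Nlrp3-/- over WT (y axis), of each gene against the GC content of its transcript in percent (x axis), in M-MDSCs (left) and G-MDSCs (right). Filled points are from the counts as deposited and open points from the fit corrected for GC content and length; the line for Itga4, at 41.1% GC, runs from -0.88 to -0.17 in G-MDSCs.

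Neither partner of α4 was called by genotype. Itgb1 had 243, 184, 178 and 225 CPM in M-MDSC WT and 192, 206, 182 and 201 in M-MDSC Nlrp3-/-. Its log2 fold change was -0.06 (95% interval -0.39 to 0.27) in M-MDSCs and -0.01 (-0.37 to 0.35) in G-MDSCs. Itgb7 had 465, 221, 359 and 288 CPM in M-MDSC WT and 417, 521, 626 and 556 in M-MDSC Nlrp3-/-. In G-MDSC WT it had 189, 74.1, 86.3 and 114 CPM, and in G-MDSC Nlrp3-/- 194, 192, 164 and 243. WT replicate 1 was the highest WT library in both subsets and overlapped the Nlrp3-/- libraries. The log2 fold change of Itgb7 was 0.69 in both subsets (SE 0.22, edgeR adjusted p = 0.0599 in M-MDSCs; SE 0.24, adjusted p = 0.0648 in G-MDSCs) and was not called. Without WT replicate 1 it was 0.91 (adjusted p = 0.0243) in M-MDSCs and 1.02 (adjusted p = 0.00379) in G-MDSCs. These were the highest values when each replicate was left out in turn, with 0.54 the lowest in either subset. Itgb7 was called in 5 of 18 alternatives in M-MDSCs and in 6 of 18 in G-MDSCs.

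Ratios of dimer partners inside a library do not depend on scaling between libraries. The log2 ratio of Itga4 to Itgb1 counts was 1.25 ± 0.07 (SD, n = 4) in M-MDSC WT, 0.79 ± 0.17 in M-MDSC Nlrp3-/-, 2.88 ± 0.05 in G-MDSC WT and 2.02 ± 0.32 in G-MDSC Nlrp3-/-. The 4 groups did not overlap. The log2 ratio of Itga4 to Itgb7 was 0.61 ± 0.41, -0.63 ± 0.32, 2.16 ± 0.44 and 0.52 ± 0.38 in the same order, with no overlap between the genotypes of a subset or between the subsets of a genotype. Itga4 has less GC than both partners (41.1% against 44.9% and 58.0%), and the ratios were not corrected for it. The log2 ratio of Itgam to Itgb2 was -0.27 ± 0.87 in G-MDSC WT and -1.62 ± 0.13 in G-MDSC Nlrp3-/- without overlap, and overlapped between genotypes in M-MDSCs. Itgal to Itgb2 overlapped in all 4 comparisons.

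**Figure D3:**
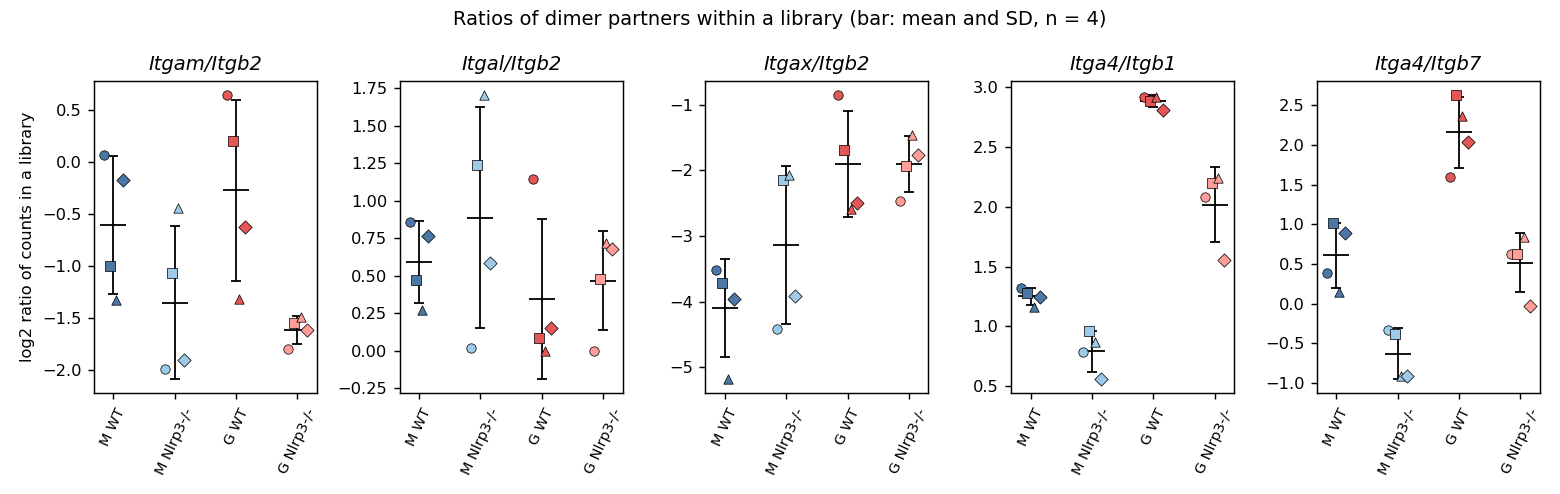
Log2 ratio of the counts of 2 dimer partners in the same library (y axis; axes differ between panels) for the 4 groups (x axis), with points for libraries and a bar for the mean and SD of 4. Itga4/Itgb1 falls into 4 separate groups, from 0.79 in M-MDSC Nlrp3-/- to 2.88 in G-MDSC WT.

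The shared β2 chain and its other partners showed no called genotype effect. Itgb2 had 213, 332, 375 and 261 CPM in M-MDSC WT and 542, 235, 154 and 366 in M-MDSC Nlrp3-/-. In G-MDSC WT it had 369, 499, 1188 and 849 CPM, and in G-MDSC Nlrp3-/- 1162, 910.0, 735 and 846. Libraries of 1 group thus differed by over 3-fold, and the log2 fold change was 0.18 (95% interval -0.56 to 0.92) in M-MDSCs and 0.24 (-0.39 to 0.87) in G-MDSCs. Itgal, the α chain of LFA-1, had 386, 462, 451 and 444 CPM in M-MDSC WT and 550, 556, 502 and 548 in M-MDSC Nlrp3-/-. These did not overlap, yet the log2 fold change of 0.33 (SE 0.14; edgeR adjusted p = 0.133) was not called. In G-MDSC WT Itgal spread from 530 to 1189 CPM and in G-MDSC Nlrp3-/- from 1158 to 1356 (log2 fold change 0.44, SE 0.21; adjusted p = 0.158).

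Itgax, which marks dendritic cells and some macrophages, was at 18.2, 25.0, 9.99 and 16.1 CPM in M-MDSC WT and 25.1, 52.7, 36.3 and 24.0 in M-MDSC Nlrp3-/-. The log2 fold change of 1.00 (95% interval 0.33 to 1.67; edgeR adjusted p = 0.0559) in M-MDSCs fell just short of the threshold. It was called in 7 of 18 alternatives, among them without WT replicate 2 (1.25, adjusted p = 0.044) and without Nlrp3-/- replicate 1 (1.09, adjusted p = 0.0331). In G-MDSC WT it was at 203, 154, 198 and 150 CPM and in G-MDSC Nlrp3-/- at 209, 239, 268 and 247, without overlap, with a log2 fold change of 0.36 (SE 0.16; adjusted p = 0.121). Summed dendritic cell markers (8 genes, 5 with enough counts) also differed by genotype, with 357–503 CPM in WT and 530–787 CPM in Nlrp3-/- M-MDSCs and 224–382 and 408–695 CPM in G-MDSCs. Most of each sum was the class II gene H2-Ab1, which other antigen-presenting cells share (220.0–379 CPM in G-MDSC WT and 403–689 in G-MDSC Nlrp3-/-). In M-MDSCs H2-Ab1 overlapped between the genotypes (278–434 CPM in WT and 415–696 in Nlrp3-/-). Clec10a did not overlap there (31.5–57.6 CPM in M-MDSC WT and 63.5–92.9 in M-MDSC Nlrp3-/-), whereas the remaining markers of the list did. In G-MDSC WT 6 of the 8 genes had at most 3 counts in any library, and Xcr1 was at 0 in all 4 G-MDSC Nlrp3-/- libraries. Their part in the Itgax values was not tested.

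Selplg, the P-selectin ligand, lay at 944, 991, 1443 and 1320 CPM in G-MDSC WT and at 1864, 1877, 1626 and 1829 in G-MDSC Nlrp3-/-. The genotypes did not overlap, and the log2 fold change of 0.53 (SE 0.17; edgeR adjusted p = 0.0466) passed the p threshold but stayed under 1.5-fold. Without WT replicate 3 it was 0.66 (adjusted p = 0.0199) and was called. That was the highest value with a replicate left out (0.43 to 0.66), and Selplg was called in 4 of 18 alternatives in G-MDSCs. In M-MDSCs Selplg ran from 231 to 293 CPM in WT and from 232 to 362 in Nlrp3-/-, a log2 fold change of 0.17 (95% interval -0.22 to 0.57). Cd44, the hyaluronan receptor, had 599, 754, 751 and 882 CPM in M-MDSC WT and 845, 444, 350.2 and 604 in M-MDSC Nlrp3-/-. In G-MDSC WT it had 1244, 2281, 3660.0 and 2791 CPM and in G-MDSC Nlrp3-/- 2503, 2685, 1796 and 2408. The genotypes overlapped in both subsets, and the log2 fold change was -0.37 (-0.94 to 0.20) in M-MDSCs and -0.18 (-0.74 to 0.39) in G-MDSCs. Without Nlrp3-/- replicate 1, Cd44 in M-MDSCs was called lower at -0.70 (adjusted p = 0.0388). This was its only call in 18 alternatives, and the values with a replicate left out ran from -0.70 to -0.19.

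The genotype effects were then compared between the subsets. For none of the 9 genes did the difference pass the test (0 called by edgeR, adjusted p from 0.992 to 0.995), where 0.028% of 10696 tested genes, or 3, were called and 480 had an unadjusted p under 0.05. The difference, G-MDSCs minus M-MDSCs on the log2 scale, was widest in Itgax at -0.53 (95% interval -1.27 to 0.21) and Selplg at 0.48 (-0.04 to 1.00), and for Itgam it was -0.14 (-0.63 to 0.35). The intervals were broader still for Itgb2 (-0.82 to 1.20), Cd44 (-0.50 to 1.15) and Itgb7 (-0.65 to 0.86). Intervals of this width leave differences of about a log2 unit in these genes, Itgax and Selplg undetected at 4 mice per group. The fit had no term for the mouse, though each mouse gave both libraries. With the mouse as a block, 0 of the 9 genes and 4 of all tested genes were called for the difference.

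**Figure D4:**
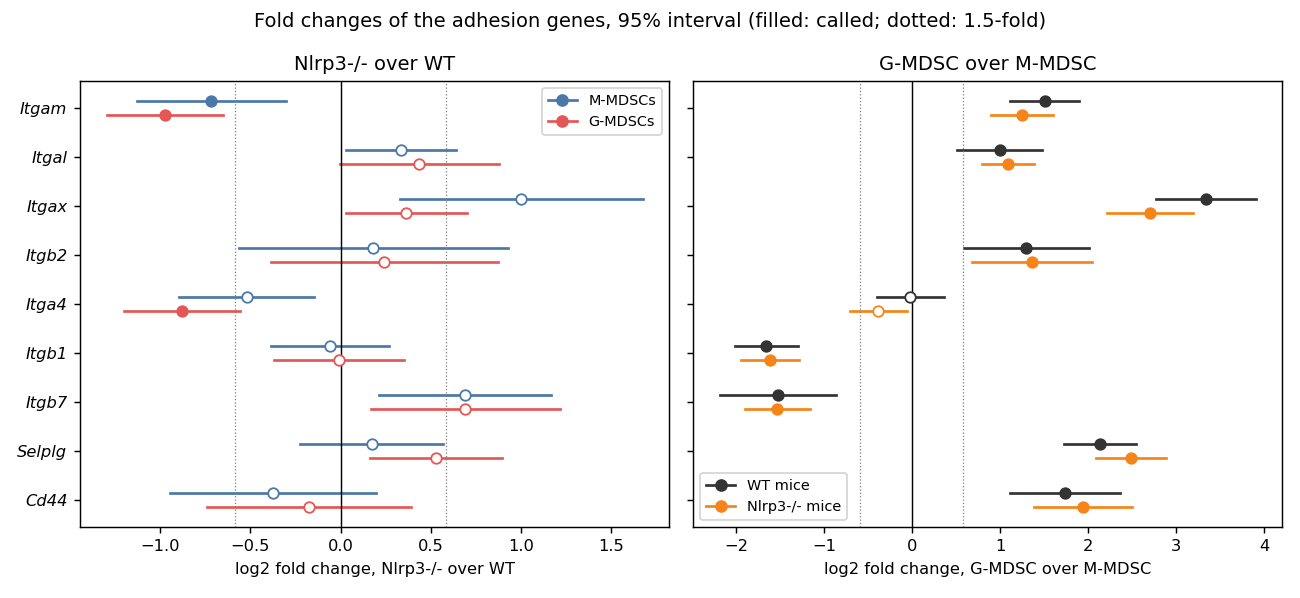
Log2 fold change (x axis) of the 9 genes (y axis), Nlrp3-/- over WT in M-MDSCs and G-MDSCs (left) and G-MDSC over M-MDSC in WT and Nlrp3-/- mice (right). Lines are 95% intervals, filled points are called and dotted lines mark 1.5-fold. The genotype effects run from -0.97 (Itgam) to 1.00 (Itgax), and the subset differences from -1.65 (Itgb1) to 3.34 (Itgax).

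The subsets differed far more than the genotypes. Relative to M-MDSCs, G-MDSCs had higher Itgam, Itgal, Itgax, Itgb2, Selplg and Cd44 and lower Itgb1 and Itgb7. Of the 9 genes 8 were called in WT mice (6 higher, 2 lower) and 8 in Nlrp3-/- mice (6 higher, 2 lower). Among all tested genes 26.3% were called higher and 27.1% lower in WT mice, and 23.7% and 27.4% in Nlrp3-/- mice. The subsets did not overlap for 7 of the 9 genes in WT mice (51.9% of tested genes) and for 8 of the 9 in Nlrp3-/- mice (50.2%). The median log2 difference of the 9 genes was 1.30 in WT and 1.25 in Nlrp3-/- mice, against -0.05 and -0.12 over all tested genes. The genotype and subset comparisons use the same libraries, so they are not independent of each other.

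Itgax differed most, from 17.3 ± 6.20 CPM in M-MDSC WT to 176 ± 28.2 CPM in G-MDSC WT (SD, n = 4). Its log2 difference was 3.34 (SE 0.26; edgeR adjusted p = 7.06e-07) in WT and 2.70 (SE 0.23; adjusted p = 2.52e-07) in Nlrp3-/- mice. Selplg rose from 268 ± 26.3 to 1174 ± 245 CPM in WT mice and from 295 ± 60.4 to 1799 ± 117 CPM in Nlrp3-/- mice, log2 differences of 2.13 (SE 0.19) and 2.49 (SE 0.18). Cd44 rose by 1.74 (SE 0.29) and 1.94 (SE 0.26). Mac-1's Itgam rose by 1.51 (SE 0.18) and 1.25 (SE 0.16), Itgb2 by 1.30 (SE 0.33) and 1.36 (SE 0.32) and Itgal by 1.00 (SE 0.22) and 1.09 (SE 0.14), each on the log2 scale and each called. The subsets overlapped for Itgb2 in WT mice, where G-MDSC WT replicate 1 (369 CPM) lay under M-MDSC WT replicate 3 (375 CPM).

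Itgb1 fell from 207 ± 31.3 to 65.8 ± 7.24 CPM in WT mice and from 195 ± 10.3 to 69.4 ± 8.55 CPM in Nlrp3-/- mice (SD, n = 4). The log2 difference was -1.65 (SE 0.16; edgeR adjusted p = 4.78e-06) and -1.61 (SE 0.15; adjusted p = 8.27e-07). Itgb7 was lower by a log2 difference of -1.52 (SE 0.30) and -1.53 (SE 0.17). Both β chains that pair with α4 were thus lower in G-MDSCs, while Itga4 itself was not called, at -0.02 (95% interval -0.40 to 0.36) in WT and -0.38 (-0.71 to -0.06; adjusted p = 0.0471) in Nlrp3-/- mice. Within mice, 8 of 8 had more Itgam, Itgal, Itgax, Itgb2, Selplg and Cd44 in G-MDSCs, 0 of 8 had more Itgb1 or Itgb7, and 2 of 8 had more Itga4.

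**Figure D5:**
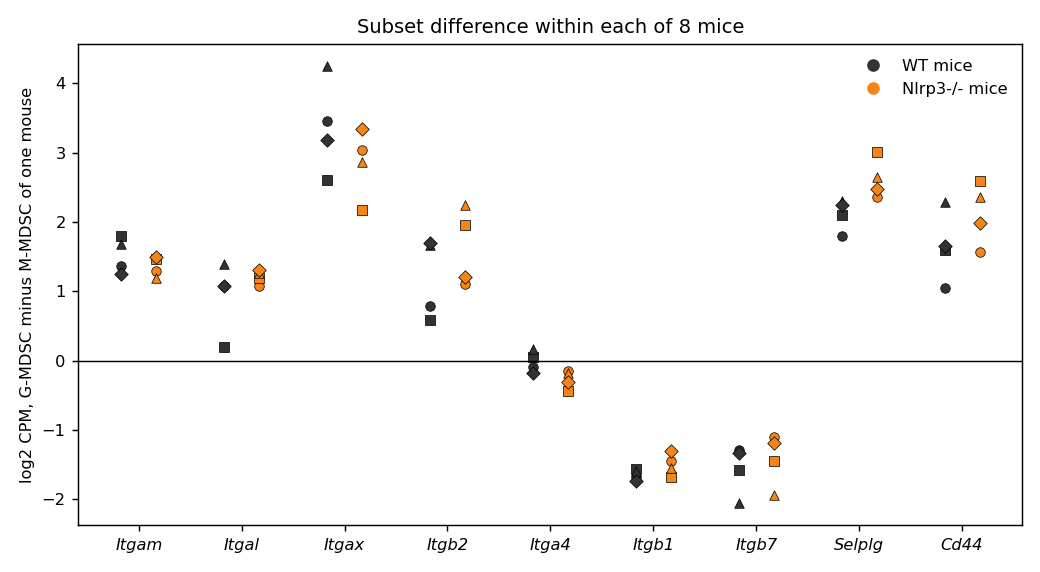
Difference in log2 CPM between the G-MDSC and the M-MDSC library of the same mouse (y axis) for the 9 genes (x axis), with 1 point for each of 8 mice and a symbol for the replicate number. Medians run from -1.58 (Itgb1) to 3.11 (Itgax), and Itga4 lies across 0 from -0.43 to 0.17.

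The scaling matters here. With library size alone in place of the trimmed mean, the median of all genes moved to -0.79 in WT and -0.83 in Nlrp3-/- mice. On that scale Itgal and Itgb2 lost their calls in both genotypes (log2 differences 0.26 and 0.56 in WT, 0.37 and 0.64 in Nlrp3-/-), Itgam lost its call in Nlrp3-/- mice (0.53), and Itga4 was called lower (-0.77 and -1.10). Itgax, Selplg and Cd44 stayed called higher and Itgb1 and Itgb7 called lower on both scales. On the trimmed-mean scale, T cell markers (7 of 8 genes measured) summed to 61.7 to 133 CPM in M-MDSCs and 119 to 193 CPM in G-MDSCs. B cell markers (7 of 8 measured) summed to 118 to 241 and 298 to 472 CPM. The scaling factors were 1.20 to 1.46 in M-MDSCs and 0.722 to 0.804 in G-MDSCs. With library size alone these sums would thus be higher in M-MDSCs and lower in G-MDSCs. Lymphocytes also carry genes of this set, Itgal, Selplg and Cd44 among them, and levels in lymphocytes were not measured here. The part of lymphocytes in the subset differences was not tested.

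Patterns over the 16 libraries were compared by the root mean square difference of centred log2 CPM, a measure of likeness over 10696 genes. Itgam was nearest to Nfe2l2 (0.15) and Clip1 (0.20), Itga4 to Apc (0.14) and St13 (0.15), and Itgal to Casc3 (0.15) and Hp1bp3 (0.15). Itgb7 was nearest to Ddrgk1 (0.22) and Csf1r (0.23), Itgb1 to Psma7 (0.18) and Limd1 (0.18), and Selplg to Gsn (0.18) and Lcp1 (0.19). Itgax had no gene closer than Vamp5 (0.35) and Map3k9 (0.36), Itgb2 was nearest to Nadk (0.20) and Notch2 (0.24), and Cd44 to Myadm (0.28) and Apobr (0.28). Among the 9 genes themselves Itgb2 and Cd44 were the closest pair (0.41), followed by Selplg with Cd44 (0.47). In G-MDSC WT, Itgb2 and Cd44 both rose in the order replicate 1, 2, 4, 3, and in M-MDSC Nlrp3-/- both rose in the order replicate 3, 2, 4, 1. The orders differed in M-MDSC WT (1, 4, 2, 3 for Itgb2 and 1, 3, 2, 4 for Cd44) and in G-MDSC Nlrp3-/- (3, 4, 2, 1 and 3, 4, 1, 2). The points share library and depth, so this is a description with no test.

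The other genes of the adhesion pathway were read from 5 lists. In each list 0 genes were called for the difference of the genotype effects between subsets, where 0.028% of 10696 tested genes were. A call in a single subset below therefore does not show that the effect was absent from the other. Of 9 tested integrin subunits outside the 9 genes (19 listed), 0 were called by genotype in M-MDSCs, and of 8 tested in G-MDSCs 3 were called higher and 1 lower. Over all tested genes 3.51% were called higher and 7.1% lower in M-MDSCs, and 4.7% and 11.7% in G-MDSCs. The median log2 fold change of these subunits was 0.47 in M-MDSCs and 0.79 in G-MDSCs, against 0.07 and 0.03 over all tested genes. Itgad, the fourth α partner of β2, was at 2.00, 0.677, 5.57 and 3.50 CPM in G-MDSC WT and 28.4, 14.6, 8.08 and 17.3 CPM in G-MDSC Nlrp3-/- (log2 fold change 2.40, SE 0.52; edgeR adjusted p = 0.00614). Itga9, another VCAM-1-binding α chain, was at 2.34, 0, 1.70 and 3.11 CPM in G-MDSC WT and 7.86, 6.17, 6.42 and 10.5 CPM in G-MDSC Nlrp3-/- (2.03, SE 0.61; adjusted p = 0.0348), a call that held in 11 of 18 alternatives. Itga6, the laminin-binding α chain, fell by 0.78 on the log2 scale (SE 0.23; adjusted p = 0.0286), a call that held in 8 of 18.

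Vcam1, the ligand of α4β1, rose in both subsets, from 11.2, 17.3, 22.8 and 13.02 to 65.6, 85.5, 31.3 and 60.0 CPM in M-MDSCs and from 52.8, 30.1, 24.0 and 41.3 to 167, 170.1, 105 and 162 CPM in G-MDSCs. The log2 fold change was 1.93 (SE 0.31; edgeR adjusted p = 0.00427) and 1.95 (SE 0.24; adjusted p = 0.00014), called in 18 of 18 alternatives in each. Of the 10 tested counter-receptor and junction genes (18 listed) it was the 1 called higher in each subset, and Thbs1 (thrombospondin) was the 1 called lower, in G-MDSCs at -1.01 (SE 0.29). Over all tested genes 3.51% were called higher in M-MDSCs, and 4.7% higher and 11.7% lower in G-MDSCs. The Thbs1 call held in 14 of 18 alternatives and was lost under the GC and length correction (-0.78; edgeR adjusted p = 0.0976), in the model of all 16 libraries, and without WT replicate 2 or Nlrp3-/- replicate 4. Red pulp macrophages of the spleen express Vcam1 and Itgad. Their markers (8 genes, Vcam1 among them) summed to 143–154 CPM in M-MDSC WT and 241–362 in M-MDSC Nlrp3-/-. In G-MDSC WT they summed to 156–253 CPM and in G-MDSC Nlrp3-/- to 418–585. The complement gene C1qa among them was at 6.33–8.38 and 31.6–46.1 CPM in M-MDSCs and 13.3–59.4 and 76.5–109 CPM in G-MDSCs. C1qb and C1qc were also higher in Nlrp3-/- cells without overlap in both subsets, and Adgre1 in M-MDSCs only. Hmox1 and Spic overlapped between the genotypes in M-MDSCs and were higher without overlap in Nlrp3-/- G-MDSCs. Mertk was at 0 in M-MDSC WT and in the lowest library of each other group, so it did not separate the genotypes. NK cell markers (8 genes) summed to 54.9–104 CPM in WT and 134–203 CPM in Nlrp3-/- M-MDSCs, and to 39.6–68.8 and 81.2–123 CPM in G-MDSCs. Gzma made up most of that gap in M-MDSCs (13.9–46.6 and 64.5–99.8 CPM), whereas Prf1 was lower in Nlrp3-/- M-MDSCs (0.892–3.53 and 0–0.853 CPM) and Eomes in Nlrp3-/- G-MDSCs (4.06–8.01 and 0.262–3.47 CPM). The part of these cells in the genotype differences was not tested.

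Of 27 tested integrin activation and adaptor genes (29 listed), 2 were called higher and 0 lower in M-MDSCs, and 2 higher and 1 lower in G-MDSCs, with medians of 0.31 and 0.38. Over all tested genes the shares were 3.51% higher and 7.1% lower in M-MDSCs and 4.7% and 11.7% in G-MDSCs. In M-MDSCs these were Dok1 (0.84, SE 0.21), which competes with talin for β tails, and Apbb1ip (0.63, SE 0.17), the Rap1 effector RIAM. In G-MDSCs Ptk2b (0.75, SE 0.16), the kinase Pyk2, and Rasgrp2 (0.76, SE 0.24), which activates Rap1, were higher, and Cyth1 (-1.52, SE 0.29), the β2-tail-binding cytohesin-1, was lower. Ptk2b and Cyth1 held their calls in 18 of 18 alternatives, Apbb1ip in 11, Dok1 in 10 and Rasgrp2 in 9.

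Among selectins and the enzymes that build their ligands (17 listed), 2 of 12 tested genes were called higher and 1 lower in M-MDSCs, and 1 of 13 higher and 1 lower in G-MDSCs, with medians of 0.10 and 0.00, beside 3.51% higher and 7.1% lower of all genes tested in M-MDSCs and 4.7% and 11.7% in G-MDSCs. Fut7 (0.89, SE 0.24) and B4galt1 (0.73, SE 0.16), which fucosylate and galactosylate the glycans that selectins bind, were called higher in M-MDSCs. Gcnt1 (0.63, SE 0.18), which branches the O-glycans of PSGL-1, was called higher in G-MDSCs. Neither B4galt1 nor Gcnt1 moved in that subset alone. Gcnt1 was at 15.4–33.6 CPM in M-MDSC WT and 36.9–56.6 in M-MDSC Nlrp3-/-, without overlap and not called. B4galt1 was at 63.2–98.5 CPM in G-MDSC WT and 99.0–129 in G-MDSC Nlrp3-/-, also without overlap and not called. Glg1, the E-selectin ligand ESL-1, was lower in both subsets, from 213, 192, 171 and 215 to 82.9, 114, 106 and 80.3 CPM in M-MDSCs. Its log2 fold change was -1.02 (SE 0.16; edgeR adjusted p = 0.00413) in M-MDSCs and -0.89 (SE 0.19; adjusted p = 0.00635) in G-MDSCs, called in 18 of 18 alternatives in each. Fut7 held its call in 9 of 18, B4galt1 in 15 and Gcnt1 in 13.

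Of the genes that link Cd44 to the cytoskeleton, make hyaluronan or shed adhesion receptors (18 listed), 1 of 10 was called higher and 2 lower in M-MDSCs, and 0 of 11 higher and 3 lower in G-MDSCs, with medians of -0.01 and 0.06. All tested genes had 3.51% called higher and 7.1% lower in M-MDSCs, and 4.7% and 11.7% in G-MDSCs. Hmmr, a hyaluronan receptor that also marks dividing cells, was lower at -2.42 (SE 0.63) and -1.84 (SE 0.42), and Adam10, a sheddase, at -1.02 (SE 0.26) and -1.03 (SE 0.23). In M-MDSCs each of the calls held in 12 of 18 alternatives. Hmmr lost it under the GC and length correction (-2.10; edgeR adjusted p = 0.054), with the replicate block and without WT replicate 2 or 4 or Nlrp3-/- replicate 2 or 4. Adam10 lost it under the same correction (-0.71) and without WT replicate 1, 2 or 4 or Nlrp3-/- replicate 3 or 4. In G-MDSCs Hmmr held its call in 18 of 18, and Adam10 in 17, losing it under the correction (-0.58). Mmp9, the gelatinase of granulocytes, was at 3.53, 2.25, 2.14 and 11.7 CPM in M-MDSC WT and 15.5, 32.1, 20.3 and 14.7 CPM in M-MDSC Nlrp3-/- (2.22, SE 0.49; edgeR adjusted p = 0.0169), and at 3101 CPM or more in each G-MDSC library. Granulocyte markers, Mmp9 among them, summed to 308–1362 CPM in M-MDSC WT and 469–673 CPM in M-MDSC Nlrp3-/-. Most of the spread in WT was Camp (86.2–886 CPM). Retnlg lay at 9.46–67.9 CPM in WT and 90.6–315 CPM in Nlrp3-/- M-MDSCs, without overlap and in the direction of Mmp9. Csf3r (16.2–41.0 and 17.5–39.8 CPM), Mmp8 (137.5–216 and 109–219 CPM), Cxcr2 (0.535–3.52 and 0.209–1.29 CPM), Camp and Ltf overlapped between the genotypes. The part of granulocytes in the Mmp9 values was not tested.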

How the data were processed

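Spleen M-MDSCs and G-MDSCs were profiled by 3′ end sequencing. Per the study's methods and the submitters' processing notes, the authors mapped reads to mm10 with HISAT2 2.1.0 and counted them per gene with HTSeq on the sense strand. The deposited values are raw counts per symbol, with no normalization. From these, edgeR 4.0.16 in R 4.3.3 was run with its default filter on low counts and TMM scaling. A quasi-likelihood test compared 4 against 4 libraries, adjusted by Benjamini-Hochberg over all tested genes. The difference of the genotype effects was fitted on all 16 libraries. No main fit had a term for the mouse. Calls needed an adjusted p under 0.05 and over 1.5-fold. Ratios used log2(count + 2). Alternatives were DESeq2 1.42.0, other scalings, filters and fits, each replicate left out in turn and, added after the data were seen, a GC and length correction and removal of Rn45s. Totals of 2295967 to 6079866 counts set the precision, and intervals cover 4 mice per group.

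All 9 genes were named in every comparison. Of each other adhesion list, the 2 higher and 2 lower called genes with the smallest p and no overlap were named, and for each of the 9 the 2 genes of most similar pattern. The members and lists were chosen with earlier results of these data known. Of 24421 symbols, 24053 matched a transcript for GC content. No pair of libraries within a group was identical (24 pairs). The mouse numbers in the labels pair M-MDSC and G-MDSC libraries of the same spleen (deviations correlated at r = 0.01 to 0.40), and the replicate block changed no subset call of the 9 genes. PCR cycles (15 or 17) and the day of sort are not given per library.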

Additional observations from a re-analysis of the deposited data

Results flagged for a closer look

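Of 36 groups of 4 libraries (9 genes in 4 groups), 2 held a library that stood apart from the other 3, where chance gives about 1 in 20. Itgal in M-MDSC Nlrp3-/- replicate 3 was at 501.7 CPM, below 547.9 to 555.7 CPM in the other 3, a gap of 0.857 of the group's range. Itga4 in G-MDSC Nlrp3-/- replicate 4 was at 238.9 CPM, below 293.6 to 299.4 CPM in the other 3, a gap of 0.904 of the range. Both libraries were kept, and without them neither gene's genotype call changed.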

How the results depend on the processing

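Direction and call were the same in 612 of 675 alternative values for the 9 genes. Leaving out 1 replicate removed 1 library from a genotype comparison and both libraries of a mouse from comparisons that used both subsets. It gave 450 to 1783 called genes for genotype in M-MDSCs (1060 with all) and 0 to 4 of the 9 genes. In G-MDSCs it gave 1104 to 1544 and 2 to 4, and for the difference between subsets 1 to 4 genes. The 0 of the 9 arose without WT replicate 4 or Nlrp3-/- replicate 2, 3 or 4. The 4 arose without Nlrp3-/- replicate 1 (M-MDSCs) and WT replicate 3 (G-MDSCs). Of the 9 genes, genotype in M-MDSCs gave 3 with DESeq2 (2 higher, 1 lower; 1424 of all genes), 3 with the exact test (2 higher, 1 lower; 1324), 2 with library size only (2 higher, 0 lower; 1253), 2 with no filter (1 higher, 1 lower; 1097), 2 in a model of all 16 libraries (1 higher, 1 lower; 1015), 0 with the replicate block and 0 with the GC correction. In G-MDSCs it gave 4 with library size only (2 higher, 2 lower; 1647), 4 in the 16-library model (2 higher, 2 lower; 1907) and 1, lower, with the GC correction. The GC correction left 651 (282 higher, 369 lower) and 981 (430 higher, 551 lower) called genes, and library size alone split the calls 684 to 569 and 793 to 854. The difference between subsets had 5 called genes with no filter.

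The replicate block, which pairs different mice by number (r from -0.45 to 0.02), left 425 called genes in M-MDSCs and 985 in G-MDSCs, where both Itgam and Itga4 stayed called.

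Directions turned in values not called in the main analysis. Itgb1 by genotype in M-MDSCs was 0.0434 with library size only, 0.1909 with GC correction and -0.1315 to 0.0449 when a library was left out. In G-MDSCs Itgb1 was 0.0102 with DESeq2, 0.0098 with its size factors, 0.1129 with library size only, 0.0774 in the 16-library model and 0.3336 with GC correction. It ran from -0.079 to 0.0508 there when a library was left out. With GC correction Itga4 (0.0034) and Selplg (-0.1565) turned in M-MDSCs and Cd44 (0.3023) in G-MDSCs. Over the libraries left out in turn, Cd44 ran from -0.4043 to 0.0863 in G-MDSCs and Itgb2 from -0.2489 to 0.4214 in M-MDSCs. With both libraries of a mouse left out, Itga4 between subsets in WT mice ran from -0.1235 to 0.0344. In the difference between subsets Itgb2 then ran from -0.0192 to 0.423 and Itgb7 from -0.0534 to 0.2742. The cause was not tested. The 4 mice per group and the depth limit what can be shown for small changes.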
